A study of Homo sapiens with 12 samples.

Results

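The genes for the protein components of the cytosolic ribosome were followed through a genome-wide CRISPR knockout screen in HEK293 cells. Members were all genes of the screen whose symbol is RPL or RPS with a number, together with RPSA, RPLP0, RPLP1 and RPLP2, with the Y-linked RPS4Y1 and RPS4Y2 left out. The rule found 84 of the 19112 genes in the deposited table. Of these, 77 were core members, 31 of the small (40S) subunit and 46 of the large (60S) subunit, and 7 were paralogues whose symbols end in L or L1 (RPL3L, RPL7L1, RPL10L, RPL22L1, RPL26L1, RPL39L and RPS27L). Each of the 84 genes was targeted by 4 sgRNAs. RPL36AL, FAU and RACK1 (listed under its older symbol GNB2L1) also encode ribosomal proteins but fall outside the rule, and are given apart.

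HEK293 is a line of human embryonic kidney cells transformed with adenovirus DNA, whose products bind p53. In all groups the cells carried the Brunello sgRNA library, which gives each cell a guide that lets Cas9 disrupt a single gene, and grew in medium with glutamine, pyruvate and uridine. The 4 conditions, with 3 replicates each and 12 samples in all, were the ethanol solvent (EtOH), 15 µM actinonin (ACT), which makes mitochondrial ribosomes produce aberrant proteins, 5 µg/mL chloramphenicol (CAP), which stops mitochondrial translation, and both drugs together (ACT CAP), and cells were sampled on day 15. The table holds 1 pooled value per gene and condition: beta, the MAGeCK coefficient for the change in guide abundance, negative where cells that lost the gene were depleted, and z, which is beta divided by its standard error. Values of single replicates and read depths were not used here, so every error below is the standard error of that fit.

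The cytosolic ribosome makes nearly all of the cell's proteins. The small subunit binds mRNA and checks the pairing of codon and tRNA, and the large subunit forms the peptide bond and releases the growing chain through its exit tunnel. Most ribosomal proteins are needed to process and fold ribosomal RNA as well as for translation itself, and their mRNAs begin with a run of pyrimidines, the 5′ terminal oligopyrimidine motif, through which mTOR signalling controls their translation.

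That start was found in most of the core members, and it is shown here because it is a sequence feature which the choice of members did not use. RefSeq (GRCh38.p14) listed a transcription start for 62 of the 77 core members. Read on the strand of the gene, at 46 of them (74.2%) the transcript started with C followed by at least 4 further C or T, against 858 of 14212 other genes of the screen (6.04%). Over the genes with 1 listed start the shares were 76.9% of 52 core members and 4.26% of other genes. Of the 5 paralogues with a listed start, only RPL22L1 had such a start. The sequences below run from 10 bases before the start to the 20th base of the transcript, that is, from the promoter into the first exon, and capitals mark the unbroken run of C and T from the start. The set holds the 3 core members with the lowest beta in EtOH (RPLP2, RPS14, RPL28), the pair with the highest (RPL7A, RPL14), and RPL22 and RPS27 each with its paralogue.
RPLP2 (chr11:809957-809986, + strand): tcggcgccttCCTTTTCCTCCCTgtcgcca
RPS14 (chr5:150449720-150449749, - strand): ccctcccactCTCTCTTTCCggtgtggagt
RPL28 (chr19:55385922-55385951, + strand): cctcgccttcCTCTTTCCgtctcaggtcgc
RPL7A (chr9:133348208-133348237, + strand): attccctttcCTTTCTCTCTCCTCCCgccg
RPL14 (chr3:40457329-40457358, + strand): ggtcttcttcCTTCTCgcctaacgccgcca
RPL22 (chr1:6199576-6199605, - strand): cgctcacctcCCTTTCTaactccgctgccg
RPL22L1 (chr3:170870176-170870205, - strand): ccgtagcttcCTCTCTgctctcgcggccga
RPS27 (chr1:153990752-153990781, + strand): cgctttcgctCCTTTCCggcggtgacgacc
RPS27L (chr15:63157458-63157487, - strand): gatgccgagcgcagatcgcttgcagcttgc
The run was 13 bases long in RPLP2 and 16 in RPL7A, the core members with the lowest and the highest beta in EtOH, and RPS27L had none. Median beta in EtOH was -0.437 over the 46 core members with such a start and -0.376 over the 16 with listed starts but none of this kind. The core members were spread over 21 chromosomes.

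The core members had lower betas than most genes in all 4 conditions. All 77 core members had a negative beta in each condition, with a median of -0.427 in EtOH, -0.400 with ACT, -0.356 with CAP and -0.392 with both drugs. Most genes had a negative beta too: 17719 of 19112 in EtOH, 16545 with ACT, 17316 with CAP and 17216 with both drugs. The median over all genes was itself below 0, at -0.157, -0.136, -0.139 and -0.133 in the same order, and 74, 71, 73 and 71 of the 77 lay under it. Of the core members, 40 were among the lowest 10% of all genes by beta in EtOH, 43 with ACT, 38 with CAP and 43 with both drugs. By gene, 24 were there in all 4 conditions, 33 in some and 20 in none. These classes were not counted over all genes. The conditions share the sgRNAs and the reference of the fit, so 10% is not the background for the classes.

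Within each subunit the betas covered a wide range. In EtOH the small subunit ran from -1.07 to -0.136 with a median of -0.419, and the large subunit from -1.13 to -0.0514 with a median of -0.437. Both subunits reached from far below most genes of the screen into the bulk of genes. The 95% intervals of neighbours in this order overlapped.

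In the small subunit the lowest beta in EtOH belonged to RPS14 of the platform, at -1.07 (95% interval -1.64 to -0.501). RPS26, which contacts mRNA near the exit site, followed at -0.929 (-1.26 to -0.597), and RPS25 of the head, known for its part in initiation at viral internal entry sites, at -0.898 (-1.38 to -0.414). RPS6, the phosphorylated target of S6 kinase, lay at -0.784 (upper bound -0.417) and RPS18 at -0.755 (-1.12 to -0.392). These 5 intervals all ended below the median of all genes. At the other end were RPS4X at -0.136 (-0.551 to 0.280), RPS3 of the mRNA entry channel at -0.219 (-0.567 to 0.129) and RPS27 at -0.275 (-0.676 to 0.125). These 3 intervals included both 0 and the median of all genes, so their level could not be told from that of an average gene.

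In the large subunit RPLP2 of the stalk had the lowest beta in EtOH, at -1.13 (-1.63 to -0.634). RPL28, which yeast lacks, lay at -1.05 (-1.38 to -0.720), RPL8 beside the peptidyl transferase centre at -0.999 (-1.43 to -0.568), RPL12 at the base of the stalk at -0.902 (-1.52 to -0.280) and RPL36 at -0.785 (-1.21 to -0.362). All 5 intervals lay below the median of all genes. RPL7A at -0.0514 (-0.377 to 0.275) and RPL14 at -0.0542 (-0.573 to 0.464) had the highest betas, and neither interval overlapped that of RPLP2. RPL9 followed at -0.172 (-0.829 to 0.486) and RPL27A at -0.175 (-0.621 to 0.271). RPL9 had the widest interval of all core members, with a standard error of 0.335.

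**Figure D1:**
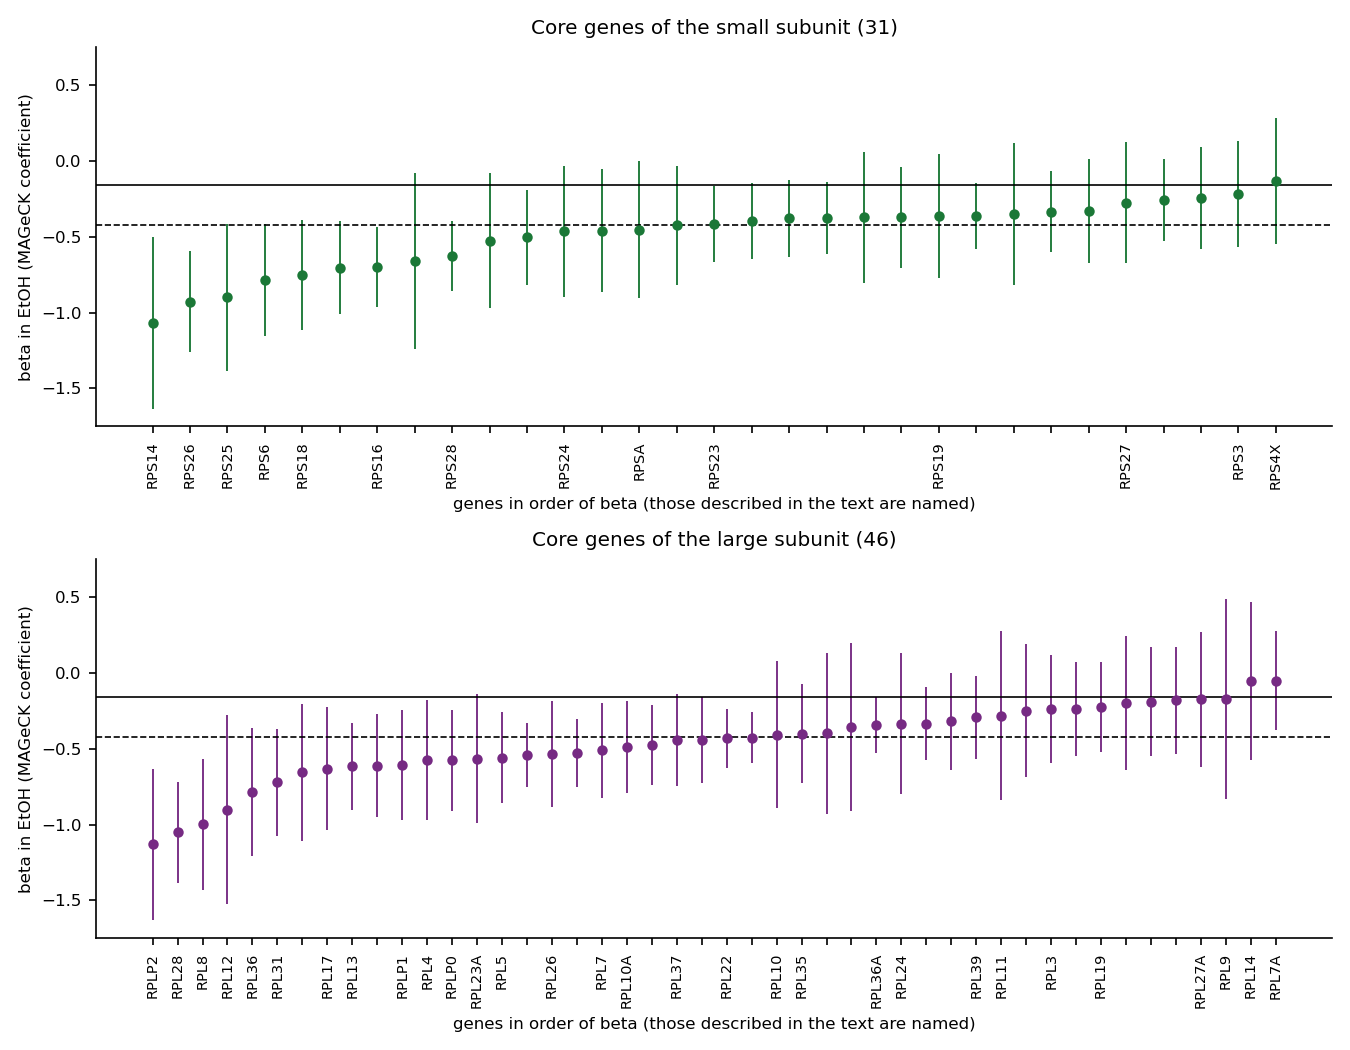
Beta in EtOH (y axis, MAGeCK coefficient) of the 31 small subunit genes (top, green) and 46 large subunit genes (bottom, purple), ordered by value, with the genes described in the text named. Points are the deposited betas and bars their 95% intervals. The solid line is the median of all 19112 genes and the dashed line the limit of the lowest 10%. Betas run from -1.13 for RPLP2 to -0.0514 for RPL7A, and the bars of neighbours overlap.

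Members with a shared place in the ribosome were then compared by group. The acidic stalk of the large subunit, which recruits and activates the translational GTPases, is made of RPLP0, RPLP1 and RPLP2 on a base that includes RPL12. All 4 genes were in the lowest 10% by beta in all 4 conditions, with a median beta of -0.755 in EtOH, -0.730 with ACT, -0.588 with CAP and -0.568 with both drugs. RPLP2 had betas of -1.13, -1.28, -0.796 and -0.649 in that order, and RPL12 of -0.902, -0.814, -0.463 and -0.482. RPLP0 had betas of -0.576, -0.646, -0.620 and -0.496, and RPLP1 of -0.608, -0.559, -0.556 and -0.641. The order of the 4 genes by beta changed between conditions. The 95% interval of RPL12 included 0 with CAP (-1.08 to 0.153) and with both drugs (-1.10 to 0.136). Ranked by z, 1 of the 4 was in the lowest 10% in EtOH, 1 with ACT, 0 with CAP and 0 with both drugs.

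The genes of the 5S particle differed in their point values, and whether their betas differ was not tested. RPL5 and RPL11 bind 5S ribosomal RNA together and, when free, bind MDM2. RPL5 had betas of -0.560 in EtOH, -0.464 with ACT, -0.371 with CAP and -0.419 with both drugs, and its 95% interval stayed below 0 in all 4 (the highest upper bound was -0.0730, in CAP). RPL11 had betas of -0.283, -0.0451, -0.0262 and -0.118, and each of its intervals included 0 (-0.840 to 0.274 in EtOH). With a standard error of 0.284 against 0.153 for RPL5, a depletion of RPL11 as large as that of RPL5 in EtOH lay inside its interval.

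The 9 proteins that line the exit tunnel or surround its mouth (RPL4, RPL17, RPL19, RPL22, RPL23A, RPL26, RPL31, RPL35 and RPL39) had a median beta of -0.534 in EtOH, and 6 of them were in the lowest 10%. The 14 proteins of the small subunit's head had a median of -0.443 with 8 in the lowest 10%, and the 17 of its body and platform -0.398 with 7. These medians lay closer together than the ranges within each group, which spanned -0.898 to -0.219 in the head and -1.07 to -0.136 in the body and platform.

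RACK1 and FAU, outside the rule, were depleted too. RACK1, a scaffold on the head of the small subunit, had betas of -1.24 in EtOH, -1.14 with ACT, -1.09 with CAP and -1.12 with both drugs. FAU, whose product is cleaved to RPS30, had betas of -0.589, -0.561, -0.442 and -0.505 in the same order. RACK1 thus lay below every core member in EtOH by its point value. Its 95% interval there (-1.66 to -0.817) overlapped that of RPLP2 (-1.63 to -0.634).

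The depth of depletion and its precision differed in the ribosomal protein genes. Their standard errors in EtOH had a median of 0.178 against 0.0804 over all genes, and all 77 were above the all-gene median, with 68 in the top 10% of standard errors. The median percentile of the standard error was 97.1 for core members, 94.5 for 55 spliceosome genes, 93.1 for 52 assembly factors of the large subunit, 91.9 for 58 of the small subunit, 91.8 for 33 proteasome genes and 90.8 for 77 mitoribosomal proteins. The same genes therefore ranked low by beta and only moderately low by z: the median percentile in EtOH was 9.83 by beta and 30.4 by z. By z, 11 core members were in the lowest 10% of genes in EtOH, 9 with ACT, 10 with CAP and 5 with both drugs. In the lowest 10% by beta in EtOH, the 40 core members had a median standard error of 0.179 and a median z of -3.52, and the 1871 other genes 0.131 and -5.01. What sets the standard error was not tested, since counts per guide and replicate were not used here.

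The 95% interval of beta gives the members whose depletion exceeded their own error. It ended below the median of all genes for 34 of 77 core members in EtOH (background 14.6% of all genes), 31 with ACT (13.6%), 24 with CAP (12.6%) and 22 with both drugs (12.4%). For 12 members (15.6%) this was so in all 4 conditions, against 6.61% of all genes, and for 31 members in none. The share of all genes with such an interval in no condition was not counted. No core member had an interval above the median of all genes in any condition. Of all 19112 genes, 1803 had one in EtOH, 2287 with ACT, 1679 with CAP and 1607 with both drugs.

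**Figure D2:**
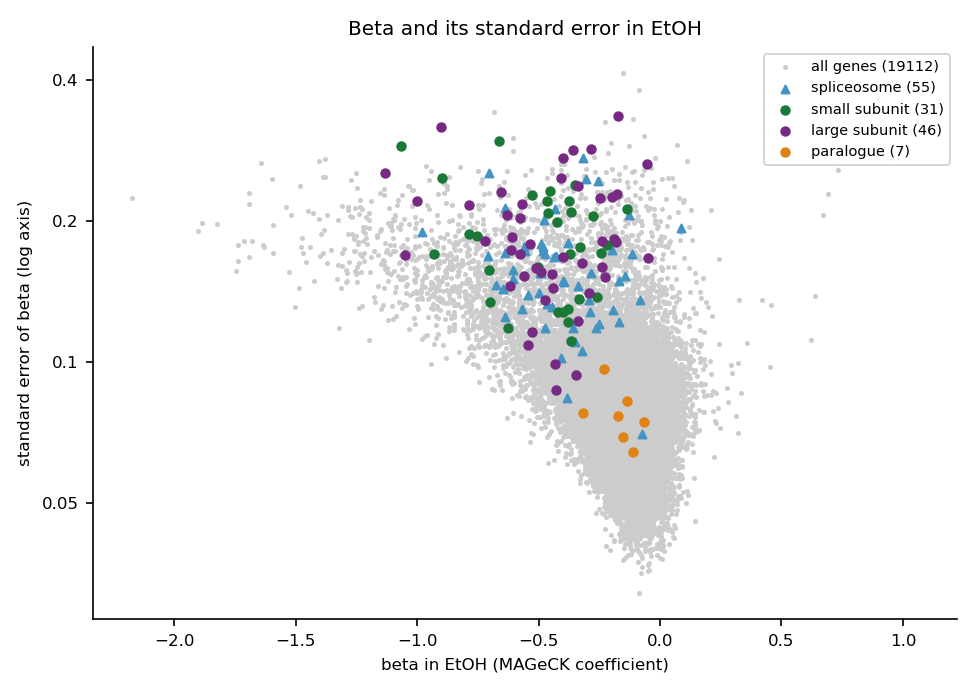
Beta in EtOH (x axis) against its standard error (y axis, log scale) for all 19112 genes (grey), 55 spliceosome genes (blue triangles), 31 small subunit genes (green), 46 large subunit genes (purple) and 7 paralogues (orange). Core members lie in the upper part of the cloud, with a median standard error of 0.178, whereas the paralogues lie near the middle of all genes.

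The order of the core members by beta was similar between conditions. Spearman's rho over the 77 genes ranged from 0.662 (EtOH and ACT CAP) to 0.777 (EtOH and CAP), with 0.693 for EtOH and ACT. These values describe genes that share the sgRNAs and the reference of the fit in every condition, and genes are not independent replicates.

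The paralogues had less negative betas than their partners. Median beta over the 7 was -0.153 in EtOH, -0.143 with ACT, -0.102 with CAP and -0.150 with both drugs, near the median of all genes, with a median standard error of 0.0767 in EtOH. In all 28 combinations of a pair and a condition the paralogue had the less negative beta. The 4 conditions of a pair share the sgRNAs and the reference of the fit, so these 28 are not independent. Some differences were small, as in RPS27L minus RPS27 at 0.0121 with both drugs. The 95% interval of the difference excluded 0 in 6 of the 28 and included it in 22. These intervals are not adjusted for the number of comparisons.

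RPL22 and RPL22L1, both RNA-binding proteins of the large subunit, gave the only pair whose interval of the difference excluded 0 in every condition. RPL22 had betas of -0.432 in EtOH, -0.490 with ACT, -0.421 with CAP and -0.446 with both drugs, and RPL22L1 of -0.153, -0.143, -0.112 and -0.150. The difference was 0.279 (0.0426 to 0.515) in EtOH and 0.347 (0.110 to 0.583) in ACT. RPL22 had a standard error of 0.0988 in EtOH, the smallest among the partners of the member paralogues. Larger differences in EtOH had intervals that included 0: 0.340 (-0.164 to 0.845) for RPL10L minus RPL10 and 0.304 (-0.0923 to 0.701) for RPL26L1 minus RPL26. RPL10, which completes the large subunit at the peptidyl transferase centre, had betas of -0.407, -0.587, -0.473 and -0.552, and its paralogue RPL10L, known from testis, of -0.0667, -0.0391, -0.0183 and -0.0414. That difference was 0.548 (0.0373 to 1.06) in ACT and 0.510 (0.000170 to 1.02) in ACT CAP, and its interval included 0 in EtOH and CAP.

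For the other pairs the interval included 0 in each condition. RPL3L, which is expressed in striated muscle, had a beta of -0.113 in EtOH against -0.240 for RPL3, and RPL39L, known from testis, of -0.134 against -0.293 for RPL39. RPS27L, a p53 target, had a beta of -0.172 against -0.275 for RPS27. RPL7L1 was the most depleted paralogue in EtOH, at -0.316 (-0.468 to -0.163) against -0.512 for RPL7. RPL26L1 had betas of -0.229 in EtOH, -0.428 with ACT, -0.299 with CAP and -0.386 with both drugs, and in the last 3 it lay within 0.0146 of RPL26, whose betas were -0.534, -0.437, -0.314 and -0.401.

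RPL36AL, outside the rule, went the other way. It had betas of -0.479 in EtOH, -0.432 with ACT, -0.391 with CAP and -0.505 with both drugs, against -0.344, -0.135, -0.149 and -0.132 for RPL36A. RPL36AL minus RPL36A was -0.297 (-0.557 to -0.0370) in ACT and -0.372 (-0.633 to -0.112) in ACT CAP, and the intervals in EtOH and CAP included 0.

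Whether stress on the mitochondrial ribosome changed the need for cytosolic ribosomal proteins was asked by 4 comparisons: each drug condition with EtOH, and ACT with ACT CAP. The difference of the betas was divided by the joined standard error, centred and scaled over all genes (the Wald difference), and called at a Benjamini-Hochberg adjusted p of 0.05 over all genes. A z difference of at least 3, or at most -3, was counted beside it with no p (the z rule). The study used a limit of 3 on differences of a z score that its methods describe as made from the fold changes of the sgRNAs in each condition, whereas the z here is beta over its standard error, so these counts need not match that rule. The first 3 comparisons share the EtOH values and are not independent of each other.

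No core member passed the Wald difference in any comparison. In ACT minus EtOH, 0 of 77 were higher and 0 lower, against a background of 1.08% and 0.157% of all genes. At an unadjusted p under 0.05 none was higher (4.94% of all genes) and 1 was lower (2.8%). By the z rule 0 passed in either direction (4.02% and 0.769% of all genes). The median beta difference was 0.0492 against 0.0257 over all genes, and the median z difference 0.237 against 0.317.

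The highest z differences in ACT minus EtOH were 2.52 for RPL13, 2.47 for RPL28 and 2.23 for RPL36A. RPL28 went from a beta of -1.05 to -0.627, a beta difference of 0.425 with a 95% interval of -0.0418 to 0.892, and RPL13 from -0.616 to -0.251. The lowest were -2.11 for RPS24, a gene mutated in Diamond-Blackfan anaemia, and -1.85 for RPL37. RPS24 went from -0.463 to -0.941, a difference of -0.478 (-1.09 to 0.136), and RPL37 from -0.444 to -0.738. RPS24 was the member under the unadjusted limit. None of these intervals excluded 0. Intervals of a beta difference use the joined standard error without the centring and scaling of the Wald difference, so they need not match the p.

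In CAP minus EtOH, 0 core members were higher and 0 lower by the Wald difference (0.188% and 0.0628% of all genes), and 0 passed the z rule (1.13% and 0.183%). Without adjustment, 1 was higher at p under 0.05 (3.91% of all genes) and 0 lower (2.93%). That gene was RPL10A, of the mobile L1 stalk that guides tRNA out of the ribosome, with betas of -0.489 in EtOH and -0.125 in CAP and a z difference of 2.33. RPL28 at 2.16 and RPL36A at 2.07 followed, and RPS23 at -1.12, RPS18 at -1.05 and RPS19 at -0.969 were the lowest. The median beta difference was 0.0389, against 0.0230 over all genes, and the median z difference 0.270 against 0.285.

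In ACT CAP minus EtOH, 0 were higher and 0 lower by the Wald difference (0.194% and 0.0837%), and 0 passed the z rule (1.27% and 0.188%). Without adjustment, at p under 0.05, 3 were higher (3.75% of all genes) and 1 was lower (3.01%). The 3 were RPS26 with a z difference of 2.87, RPL28 with 2.77 and RPS16 with 2.57. RPS26 went from a beta of -0.929 to -0.444, a difference of 0.485 (0.0151 to 0.955), and RPL28 from -1.05 to -0.575. RPL19, which reaches from the large subunit to a bridge between the subunits, was the lower one, at -1.67, with betas of -0.226 and -0.484. RPS24 at -1.56 and RPL7A at -1.22 came next. The median beta difference was 0.0723, against 0.0291 over all genes, and the median z difference 0.466 against 0.360. The median beta difference from EtOH turned below 0 when the core members were set against genes of like beta, as a residual from a running median: -0.0417 with ACT, -0.0173 with CAP and -0.00583 with both drugs.

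In ACT minus ACT CAP, which sets ACT without CAP against ACT with it, 0 core members were higher and 0 lower by the Wald difference (0.534% and 0.288%). By the z rule none reached 3 (1.25% of all genes) and 1 reached -3 (0.665%), which was RPS28 at -3.07. RPS28, a small protein of the head near the mRNA exit, had betas of -0.627 in EtOH, -0.742 with ACT, -0.597 with CAP and -0.376 with both drugs, so that it was most depleted in ACT and least in ACT CAP. Its beta difference was -0.365 (-0.693 to -0.0371), and its Wald difference of -2.92 had a Benjamini-Hochberg adjusted p of 0.198 in the test across all genes. At an unadjusted p under 0.05, 0 core members were higher (4.33% of all genes) and 2 were lower (3.2%), RPS28 and RPLP2, the latter with a z difference of -2.37.

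RPS23 of the decoding centre had the next lowest z difference in ACT minus ACT CAP, at -1.99, with betas of -0.614 in ACT and -0.353 in ACT CAP. The highest were 1.49 for RPL13, 1.46 for RPL24 and 1.41 for RPL3. The median beta difference was -0.0391 against -0.00148 over all genes. A z difference above 0 was found in 30 of the 77, against 9413 of 19112 genes. In the comparisons with EtOH the same counts were 46 with ACT, 48 with CAP and 53 with both drugs, against 11500, 11695 and 12239 of all genes.

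The interaction, which is beta in ACT CAP minus ACT minus CAP plus EtOH, called 0 core members higher and 0 lower (0.0994% and 0.513% of all genes). At an unadjusted p under 0.05, 2 were higher (2.59%) and 1 was lower (4.66%). On the z scale 1 core member reached 3 (1.67% of all genes), RPS23 at 3.11, and 1 reached -3 (5.5%), RPL13 at -3.33. RPS28 stood at 2.81. In RPS23 the betas were -0.419 in EtOH, -0.614 with ACT, -0.567 with CAP and -0.353 with both drugs, lower with either drug than with none or both. In RPL13 they were -0.616, -0.251, -0.348 and -0.468, higher with either drug than with none or both.

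No paralogue passed the Wald difference in the 4 comparisons or the interaction either, nor the z rule in the 4 comparisons. At an unadjusted p under 0.05, RPL26L1 was lower in ACT CAP minus EtOH, with a z difference of -1.61, and RPL3L was higher in ACT minus ACT CAP, with 2.89. RPL3L had betas of 0.0372 with ACT and -0.149 with both drugs, and reached -3.06 in the interaction on the z scale.

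**Figure D3:**
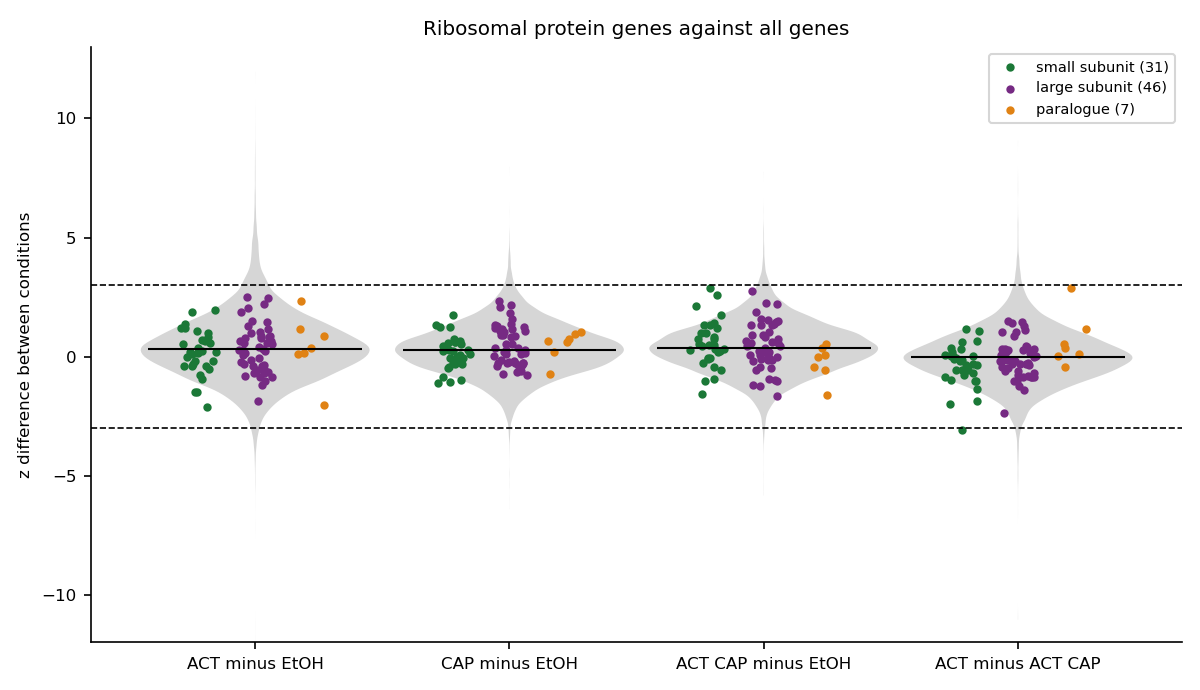
Difference of z between conditions (y axis) in the 4 comparisons (x axis) for small subunit genes (green), large subunit genes (purple) and paralogues (orange), over the distribution of all genes (grey, with its median as a black line). The dashed lines mark 3 and -3. RPS28 at -3.07 in ACT minus ACT CAP is the only core member beyond a line.

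The standard errors set how small a difference could be called. At the median joined error of the core members, a beta difference had to lie 0.770 from the centre of all genes to pass in ACT minus EtOH, 0.694 in CAP minus EtOH, 0.686 in ACT CAP minus EtOH and 0.663 in ACT minus ACT CAP. At the median error of all genes the same limits were 0.347, 0.313, 0.310 and 0.299. The median beta of the core members in EtOH was -0.427, so for a typical member even a full return to 0 lay under the limit. A difference of that size could not be called in such a gene at this precision.

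Mitoribosomal proteins, a group of the same number of genes, are given for scale. Their median beta was -0.698 in EtOH, -0.381 with ACT, -0.566 with CAP and -0.620 with both drugs, and their median standard error in EtOH was 0.131. By the Wald difference 15 of 77 were higher in ACT minus EtOH (1.08% of all genes) and 12 in ACT minus ACT CAP (0.534%), where no cytosolic member passed. Whether the shifts of the 2 groups differ was not tested.

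**Figure D4:**
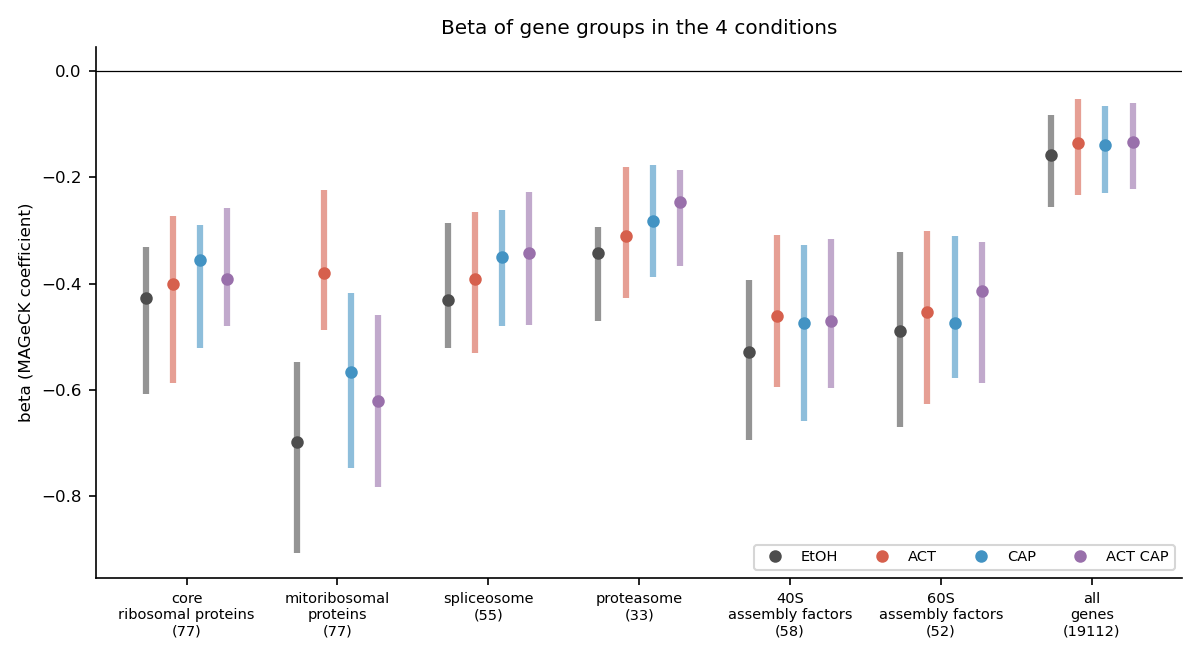
Median beta (points) and interquartile range (bars) of 6 gene groups and of all genes in EtOH, ACT, CAP and ACT CAP (y axis, MAGeCK coefficient), with the number of genes in parentheses. The medians of the core ribosomal proteins lie between -0.427 and -0.356 in all 4 conditions, while the mitoribosomal proteins move from -0.698 in EtOH to -0.381 in ACT.

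Genes that build, supply and watch over the cytosolic ribosome were counted from lists of the pathway. Of 58 assembly factors of the small subunit, 41 were in the lowest 10% by beta in EtOH, and none was called higher (1.08% of all genes) and 1 lower (0.157%) in ACT minus EtOH. This was RIOK3, an atypical kinase of the RIO family, with betas of -0.0677 in EtOH, -0.346 with ACT, -0.100 with CAP and -0.0942 with both drugs and Wald differences of -3.67 in ACT minus EtOH and -3.69 in ACT minus ACT CAP, where 0.288% of all genes were called lower. The ACT value lay below the other 3.

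Of 52 assembly factors of the large subunit, 32 were in the lowest 10% in EtOH, and 1 was called higher (1.08% of all genes) and none lower (0.157%) in ACT minus EtOH. This was SBDS, which with EFL1 releases eIF6 from the new large subunit and is mutated in Shwachman-Diamond syndrome. Its betas were -1.74 in EtOH, -0.821 with ACT, -1.91 with CAP and -1.72 with both drugs, with Wald differences of 3.87 in ACT minus EtOH and 4.85 in ACT minus ACT CAP, where 0.534% of all genes were called higher. Here the ACT value lay above the other 3.

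Among 42 factors of initiation, elongation and termination, 26 were in the lowest 10% in EtOH. By the Wald difference 1 was called, EIF3L, a subunit of the eIF3 complex. By the z rule 6 of the 42 were higher in ACT minus EtOH (4.02% of all genes). In CAP minus EtOH 4 were higher (1.13%) and in ACT CAP minus EtOH 4 (1.27%), and 0 were lower in these comparisons. In the interaction 1 reached 3 (1.67%) and 4 reached -3 (5.5%). EIF3L had betas of -0.660 in EtOH, -0.227 with ACT, -0.381 with CAP and -0.106 with both drugs, with Wald differences of 3.61 in ACT minus EtOH (1.08% of all genes called higher) and 5.81 in ACT CAP minus EtOH (0.194%). Of 12 genes of ribosome quality control, 1 was called by the Wald difference, USP10, a deubiquitinase that rescues small subunits from decay. By the z rule 4 of the 12 were higher in ACT minus EtOH, 2 in CAP minus EtOH and 4 in ACT CAP minus EtOH. None was lower in these comparisons, and in the interaction 0 reached 3 and 2 reached -3. USP10 had betas of -0.588, 0.0782, -0.324 and -0.156, and passed as higher in ACT minus EtOH (Wald difference 6.01) and in ACT CAP minus EtOH (4.70) and as lower in the interaction (-3.76). The shares of all genes called in these directions were 1.08%, 0.194% and 0.513%. EIF3L and USP10 had higher betas in each drug condition than in EtOH, unlike SBDS and RIOK3. Against a standard normal null, the Wald calls on EIF3L, USP10, SBDS and RIOK3 were lost except that of USP10 in ACT minus EtOH.

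None of 14 RNA polymerase I genes and none of 7 chaperones dedicated to ribosomal proteins was called in any comparison or in the interaction. At an unadjusted p under 0.05, 2 of the polymerase genes were higher in ACT minus EtOH (4.94% of all genes), 1 in CAP minus EtOH (3.91%) and 3 in ACT CAP minus EtOH (3.75%), and 1 was lower in the interaction (4.66%). Of the chaperone genes 1 was higher in ACT minus EtOH and 2 in CAP minus EtOH, and 2 were lower in the interaction. The z rule passed the same numbers in ACT minus EtOH (4.02% of all genes) and in the interaction (5.5%), and none in the other comparisons.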

How the data were processed

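Guide abundance was measured in 12 samples, 3 per condition, grouped by the treatment in their labels. The authors ran MAGeCK (version not given in the sources used here) and deposited 1 table with a beta score, a z score and a Wald p-value per gene and condition, pooled over replicates and guides. The reference of the fit is not named. The table had passed through a spreadsheet: 1146 z scores stood as dates (0 in members) and were rebuilt from the deposited Wald p-value with the sign that beta has.

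Standard errors were taken as beta over z, and 95% intervals from them. The Wald difference was centred on the median and scaled by 1.4826 times the median absolute deviation of all genes, with a 2-sided normal p, and was tested on simulated data. Members and lists were chosen with earlier results of these data known. Genes named are the paralogues and partners, the 5 lowest and 5 highest per subunit in EtOH, the 3 highest and lowest z differences per comparison, the stalk and 5S genes, pathway genes past the Wald difference, and ribosomal proteins outside the rule. Some genes under these rules are not reported here. Alternatives were other call rules, nulls, thresholds, centrings, scalings and gene filters. The authors' permutation p-values and FDR were not used. Scripts ran under Python 3.11.15 with scipy 1.17.1, numpy 2.4.6, matplotlib 3.10.9 and pandas 2.3.3.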

Additional observations from a re-analysis of the deposited data

Results flagged for a closer look

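For USP10 the interaction of ACT and CAP passed the Wald difference at an adjusted p of 0.05, at -3.76, with betas of -0.588 in EtOH, 0.0782 with ACT, -0.324 with CAP and -0.156 with both drugs. The call was lost at an adjusted p of 0.01 and against a standard normal null (-2.82). No ribosomal protein gene passed.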

How the results depend on the processing

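No paired analysis was possible because the deposited table holds 1 value per gene and condition, pooled over the replicates, and for the same reason no replicate could be left out. The count of core members called was 0 in all 4 comparisons and the interaction by the Wald difference. It stayed 0 with an adjusted p of 0.01, a standard normal null, no centring and a z difference of 4. It also stayed 0 with genes with exactly 4 sgRNAs, genes with a dated z left out and the paralogues counted in. An adjusted p of 0.01 and a z difference of 4 are stricter limits. The standard normal null was stricter too, because the scale it leaves out was below 1. That scale ran from 0.713 in ACT CAP minus EtOH to 0.888 in ACT minus EtOH. All 84 members had 4 sgRNAs and 0 had a dated z, so those filters removed no member. Most of these settings could therefore not be expected to add a call. A z difference of 3 gave 1 gene in ACT minus ACT CAP and 2 in the interaction, and after removing a running median over genes again 1 (RPS28, at -3.31) and 2 (RPS23 at 3.59 and RPS28 at 3.73, with RPL13 at -2.33). The core members among the lowest genes by beta numbered 40, 43, 38 and 43 (EtOH, ACT, CAP, ACT CAP) at the lowest 10%, 20, 26, 19 and 16 at the lowest 5%, and 11, 9, 10 and 5 when ranked by z. The median beta difference kept its sign with z, the mean, centring and scaling, and turned below 0 as a residual from the running median over beta (-0.0417 with ACT, -0.0173 with CAP and -0.00583 with both drugs, each minus EtOH) and from a line over the lowest 10% of genes (-0.0567, -0.0147 and -0.0276). These shifts are smaller than the joined standard error of a single member, 0.253 at the median in ACT minus EtOH. Of the calls on EIF3L, RIOK3, SBDS and USP10, 13 values under an alternative were no longer past the threshold and 0 reversed. The causes were not tested. At the median joined standard error of the core members a beta difference less than 0.770 from the centre of all genes could not be called in ACT minus EtOH.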

Other observations

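The 33 ribosomal proteins with counterparts in bacteria and archaea had a median beta of -0.453 in EtOH, -0.406 with ACT, -0.387 with CAP and -0.391 with both drugs, and the other 44 core members -0.426, -0.381, -0.340 and -0.405. In the lowest 10% of genes by beta in EtOH were 17 of the 33 and 23 of the 44. Among 374 olfactory receptor genes, which HEK293 cells do not need for growth, the median beta in EtOH was -0.0958 with a median standard error of 0.0732, and 8 were in the lowest 10%.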
